A study of Sus scrofa with 12 samples.

Results

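The annulus fibrosus is the fibrous ring of the intervertebral disc. Its inner part is rich in type II collagen and aggrecan and resembles cartilage, and its outer part is rich in type I collagen and resembles ligament and tendon. COL2A1 encodes the chain of type II collagen, COL1A2 encodes the second chain of type I collagen, ACAN encodes aggrecan, the large proteoglycan that holds water in cartilage, and TNMD encodes tenomodulin, a membrane protein known from tendon and ligament.

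Described here are the 6 libraries titled control, of 12 libraries in the series, chosen by that title alone. The libraries were made from poly-A RNA of the central ventral wedge of a lumbar annulus of Non-loaded Control pigs, which were skeletally immature domestic Duroc cross animals (Large White × Landrace) of mixed sex. These pigs were kept under isoflurane anaesthesia, received no manual loading and were then euthanized. The questions were which transcripts made up the Non-loaded annulus and which genes varied together with the COL2A1 share and the COL1A2 share of all counts. The dissected annulus was cut into small pieces, frozen and powdered, and the labels do not say which pieces went into a library. How much inner and outer annulus a library held was not measured, and the labels give neither the sex nor the mass of its pig. A gradient from inner to outer annulus therefore cannot be told apart from other differences between pigs, dissections or pieces.

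Totals were 12519251 to 24896924 expected counts per library (median 20558514), and 15879 to 16922 of 22198 genes had a count above 0. All 4 markers of the annulus were detected in every library. In bulk tissue, fewer cells of a type and less RNA per cell cannot be told apart. The p-values below measure the spread between these 6 libraries.

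COL2A1 took 22.7, 31.4, 27.6, 44.8, 14.0 and 11.4% of all counts in replicates 1 to 6. COL1A2 took 9.18, 7.29, 5.66, 2.65, 18.9 and 17.9% in the same order. Replicate 4 had the highest COL2A1 share and the lowest COL1A2 share, and replicates 5 and 6 were the only libraries with more COL1A2 than COL2A1. The ratio of COL2A1 to COL1A2 counts was 2.47, 4.30, 4.87, 16.9, 0.740 and 0.637, a range of 26.5-fold, against 3.93-fold for the COL2A1 share alone and 7.12-fold for the COL1A2 share alone. The widest 95% Wilson interval of any of these shares spanned 0.0434 percentage points, so counting error was far below the differences between libraries. Both shares are parts of 1 total and so are not independent of each other. Together they held 29.3 to 47.5% of all counts, and both were higher in replicate 2 than in replicate 3. Taken against the counts left without both collagens, COL2A1 varied 5.29-fold and COL1A2 5.57-fold.

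**Figure D1:**
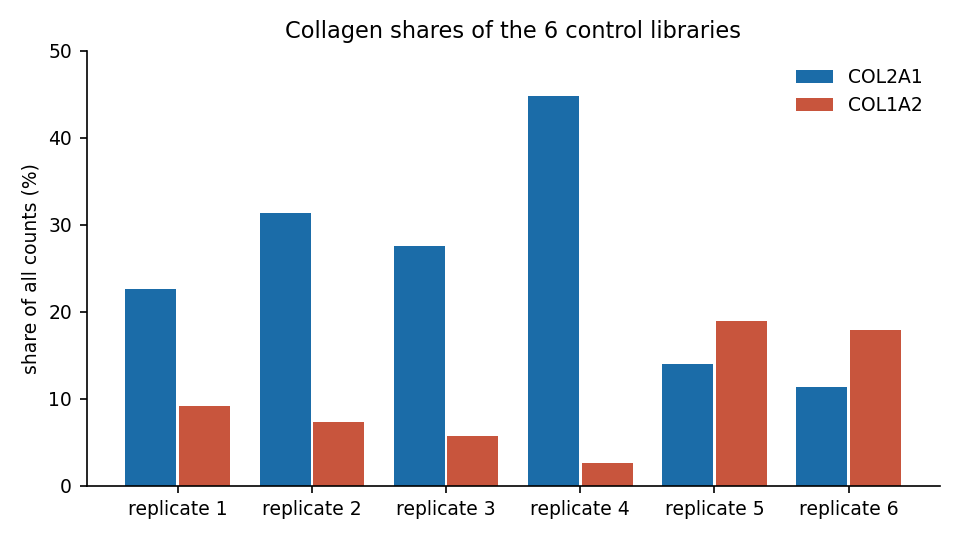
Shares of COL2A1 and COL1A2 in all counts, in percent, as 1 pair of bars for each of the 6 control libraries. COL2A1 reaches 44.8% in replicate 4 and falls to 14.0 and 11.4% in replicates 5 and 6, where COL1A2 stands higher, at 18.9 and 17.9%.

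Replicates 5 and 6 also stood apart over all genes. On the first principal component of log2 levels, which held 47.7% of the variance, they lay at −43.7 and −35.5, and replicates 1 to 4 at 12.6, 18.6, 19.4 and 28.5. Slopes in replicates 1 to 4 alone are therefore given beside many of the slopes over all 6 libraries.

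The sequence before each gene's start is shown for the 4 markers, since the rest of the description is ordered by them. Each window runs from 250 bases before the annotated start of the gene to 50 bases into it, in the RefSeq annotation of Sscrofa11.1, and is written on the strand of the gene. The COL2A1 window is chr5:78380844-78381143 (minus strand), that of ACAN chr7:54449580-54449879 (plus), that of COL1A2 chr9:74174234-74174533 (plus) and that of TNMD chrX:82269073-82269372 (plus). Capitals mark the letters TATAAA and CATCTG.
COL2A1: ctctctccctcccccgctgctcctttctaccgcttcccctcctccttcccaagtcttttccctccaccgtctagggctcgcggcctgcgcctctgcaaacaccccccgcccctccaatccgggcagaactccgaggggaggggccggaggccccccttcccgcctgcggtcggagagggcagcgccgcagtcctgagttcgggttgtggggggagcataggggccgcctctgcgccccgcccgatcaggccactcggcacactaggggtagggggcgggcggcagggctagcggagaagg
ACAN: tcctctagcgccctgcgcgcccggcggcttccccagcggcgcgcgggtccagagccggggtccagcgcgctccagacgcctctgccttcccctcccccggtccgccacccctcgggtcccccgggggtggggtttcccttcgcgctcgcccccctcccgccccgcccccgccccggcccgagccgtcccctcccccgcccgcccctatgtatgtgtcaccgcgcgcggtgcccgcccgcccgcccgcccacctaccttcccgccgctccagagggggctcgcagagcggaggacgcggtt
COL1A2: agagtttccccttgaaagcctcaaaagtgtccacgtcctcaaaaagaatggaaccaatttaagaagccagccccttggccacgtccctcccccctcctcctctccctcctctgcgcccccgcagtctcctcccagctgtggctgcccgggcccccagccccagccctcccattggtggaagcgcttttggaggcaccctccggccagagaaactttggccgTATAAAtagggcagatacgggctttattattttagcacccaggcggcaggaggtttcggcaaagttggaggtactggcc
TNMD: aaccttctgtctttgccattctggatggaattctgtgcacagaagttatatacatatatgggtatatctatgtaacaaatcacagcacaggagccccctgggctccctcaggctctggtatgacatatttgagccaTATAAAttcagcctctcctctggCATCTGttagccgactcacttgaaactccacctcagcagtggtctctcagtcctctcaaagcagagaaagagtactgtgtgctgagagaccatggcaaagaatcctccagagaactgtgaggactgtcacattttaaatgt

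The windows differed in base composition, with a GC content of 71% for COL2A1, 79.7% for ACAN, 58.7% for COL1A2 and 45.3% for TNMD, against a median of 58% over 20664 promoters read in the same way. TATAAA was searched on the sense strand. The SOX-type letters ACAATG and the overlapping form AACAAT were searched on both strands, as were the E-box forms CATCTG and, with another centre, CACCTG. COL1A2 held TATAAA 29 bases before its start. TNMD held TATAAA 114 bases and CATCTG 91 bases before its annotated start. From that start on its window reads atg, the letters of a start codon. The TNMD distances may therefore not be distances to the start of transcription, and are not comparable with that of COL1A2. None of the 5 was found in the COL2A1 or the ACAN window. Of all promoters, 7.43% held TATAAA. The first SOX-type form was held by 9.53% and the overlapping form by 8.72%, and the 2 E-box forms by 14.4 and 22.3%. A match is a description of letters and was not tested against expression.

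Among transcripts with a symbol, collagens and proteoglycans led in abundance. The 10 most abundant transcripts of a library held 44.5 to 60.2% of its counts (49.4% ± 5.77, SD, n = 6), and 23.8% of the counts that were left once both collagens were taken out. Levels are given as CPM (counts scaled to a fixed library total), taken over all counts, with no correction for length. COL2A1 averaged 252960 ± 122550 CPM (SD, n = 6), COL1A2 102637 ± 66618 CPM and COL3A1, which encodes type III collagen, 34118 ± 4868 CPM. The fibrillar collagens thus led the list, and COL3A1 varied far less between libraries than the other 2. Of the genes with a symbol, the small leucine-rich proteoglycans FMOD (fibromodulin) and BGN (biglycan) followed, with 19337 ± 3676 and 14197 ± 1867 CPM. Both bind collagen fibrils and growth factors. ACAN averaged 9040 ± 4253 CPM. COL11A1, a chain of the minor fibrillar type XI collagen, averaged 8443 ± 2479 CPM, and COMP, a pentameric adaptor between collagens, 6948 ± 3815 CPM.

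Of the 40 genes of highest mean CPM, 8 have no symbol in the tables used and are not described further. They include those at places 5, 7, 8 and 9 of all genes, at 19311, 12564, 12348 and 10049 CPM on average. COL1A1, the other chain of type I collagen, is not analysed here. Further down the list stood CILP2, FN1 (fibronectin), CCN2, COL11A2, COL6A3 and COL5A1 at 4366 to 6144 CPM on average. The mitochondrially encoded COX3, ATP6, COX2 and COX1 averaged 2262 to 3858 CPM. CCN2, a matricellular growth factor, stood at 2202, 2843, 2404, 5280, 9336 and 8427 CPM in replicates 1 to 6. It was highest in replicates 5 and 6 and next highest in replicate 4, and its slope on the COL2A1 share, defined below, was −0.48 (adjusted p = 0.522) in all 6 libraries and 1.92 in replicates 1 to 4. CILP, a protein of the cartilage intermediate layer, stood at 2929, 4630, 4153, 2443, 486 and 1416 CPM, with replicate 5 lowest and replicate 6 next.

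**Figure D2:**
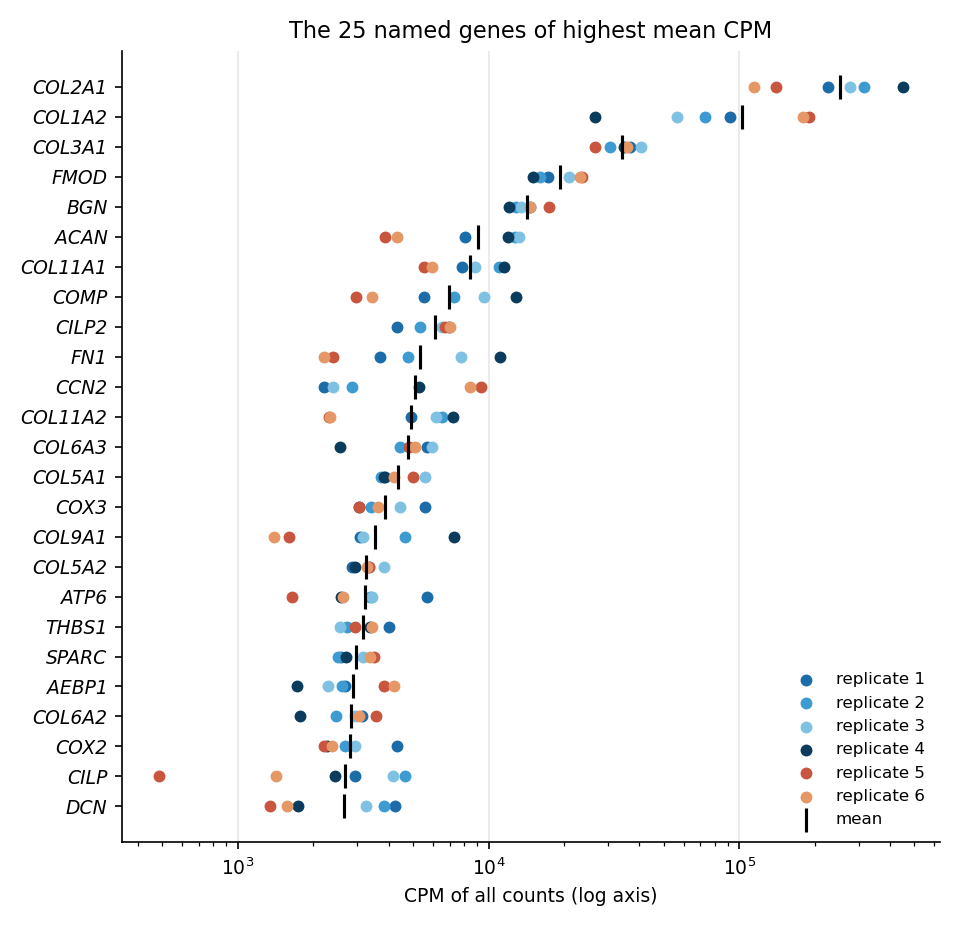
CPM of all counts, on a log axis, of the 25 named genes with the highest mean, with 1 point for each of the 6 control libraries and a bar at the mean. COL2A1 averages 252960 CPM and COL1A2 102637 CPM, with the points of replicates 5 and 6 lowest for COL2A1 and highest for COL1A2, while the points of COL3A1 lie close together around 34118 CPM.

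Levels of different genes can be compared only per length, and the coding lengths used here are RefSeq's, which may differ from the Ensembl gene models behind the counts. Over 11036 genes with a symbol and a coding length, COL2A1 averaged 56705 CPM per kb of coding length, COL1A2 25046, FMOD 17097, BGN 11571 and COL3A1 7752. Per coding kb, FMOD and BGN thus stood above COL3A1. Genes of long coding sequence moved down, ACAN from place 6 by CPM to place 32 per coding kb, COL11A1 from 7 to 19, CILP2 from 9 to 16 and FN1 from 10 to 69. COMP moved from 8 to 11. Short genes moved up, such as RPLP1, a ribosomal protein gene, which stood at place 43 by CPM and place 9 per coding kb with 3379 CPM per kb.

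Each gene's level was then fitted against the log2 of the COL2A1 share with the quasi-likelihood test of edgeR. The slope is the log2 change in level for each doubling of the share, and levels in this and the following paragraphs are CPM scaled by TMM, which corrects for the counts that a few very abundant genes take up. Of 12045 genes tested, 353 passed an adjusted p under 0.05 (2.93%), of which 143 were higher with the COL2A1 share (1.19%) and 210 lower (1.74%). The genes higher with the share made up 40.5% of those called, and 15.5% under scaling by library size alone, which moved the median slope of all genes from 0.01 to −0.10. COL1A2 itself is among the 210, with a slope of −1.28, and is given as a description only, since both shares are parts of 1 total.

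The number of calls depended on single libraries. In replicates 1 to 4 alone, which span 0.984 of the 1.97 doublings of the COL2A1 share, edgeR called 0 genes, with 1147 of 12708 at an unadjusted p under 0.05, against 2501 of 12045 in all 6 libraries. The sign of the slope in replicates 1 to 4 was that of all 6 libraries for 143 of the 143 genes called higher and 205 of the 210 called lower. These 4 libraries are among the 6 by which the genes were called, so agreement in sign follows in part from the calling. It was not counted over all genes tested and gives no support to the calls. Leaving out replicate 2, 3, 4, 5 or 6 left 48, 230, 76, 39 and 35 calls. Replicates 5 and 6 lay both above or both below the other 4 in 137 of the genes called higher and 206 of those called lower, against 38% of all genes tested, which follows in part from the share by which the genes were called. Of all genes tested, 77 stood in exactly the order of the COL2A1 share over the 6 libraries and 40 in the reverse order.

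Several but not all genes of cartilage matrix were higher with the COL2A1 share. Of the 4 cartilage collagens with a slope, 3 passed, all higher, with a median slope of 1.21 against 0.01 for all genes tested (1.35 in replicates 1 to 4). ACAN stood at 6883, 12721, 12119, 15227, 4109 and 4096 CPM in replicates 1 to 6 (slope 1.11, standard error 0.18, adjusted p = 0.0271 from edgeR). COL9A1, a chain of the type IX collagen that coats type II fibrils, stood at 2630, 4641, 2875, 9208, 1701 and 1321 CPM (slope 1.34, standard error 0.17, adjusted p = 0.0174). Both were highest in replicate 4 and lowest in replicates 5 and 6. COL11A2 (slope 1.08, adjusted p = 0.0166) and COL27A1 (slope 1.79, adjusted p = 0.0206), minor fibrillar collagens of cartilage, passed as well. COL11A1 did not (slope 0.68, adjusted p = 0.0662), although its levels were lowest in replicates 5 and 6, at 5903 and 5663 CPM, and highest in replicate 4, at 14560 CPM.

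Among 12 tested genes for aggrecan, link proteins and cartilage adaptors, 4 were higher and 1 was lower with the COL2A1 share, with a median slope of 0.36 (0.95 in replicates 1 to 4). HAPLN1, the link protein that fixes aggrecan to hyaluronan, had a slope of 0.81 (adjusted p = 0.023). COMP stood at 4721, 7283, 8768, 16348, 3148 and 3255 CPM (slope 1.18, standard error 0.19, adjusted p = 0.0256). SNORC, a small membrane proteoglycan of cartilage, stood at 13.4, 53.1, 55, 155, 6.57 and 7.14 CPM (slope 2.39, standard error 0.27, adjusted p = 0.0153). The range of SNORC was thus wider than that of COL2A1 itself, and replicate 4 stood far above the rest. MATN2, a matrilin, was the member lower with the share (slope −0.87, adjusted p = 0.0297). MATN3, another matrilin of cartilage, fell under the count minimum and has no test. It stood at 1.13, 15.3, 1.05, 152, 0.09 and 0.46 CPM, so that replicate 4 held nearly all of it.

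FN1 was likewise highest in replicate 4 and lowest in replicates 5 and 6, with 3159, 4762, 7081, 14156, 2548 and 2086 CPM (slope 1.32, standard error 0.22, adjusted p = 0.0297, and 1.98 in replicates 1 to 4). It was the 1 member higher with the share among 11 fibronectin, tenascin and matricellular genes. THBS2, a thrombospondin, was the 1 member lower, with 424, 471, 585, 217, 765 and 1396 CPM (slope −1.12, adjusted p = 0.0326), and was highest in replicates 5 and 6. THBS1, the thrombospondin of highest level, did not share this pattern, with the highest level in replicate 4, at 4264 CPM, and the lowest in replicate 3, at 2331 CPM (adjusted p = 0.815).

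The largest positive slope among named genes was that of SFRP5, a secreted inhibitor of Wnt signalling. SFRP5 stood at 43.3, 174, 113, 254, 8.61 and 3.15 CPM (slope 3.41, standard error 0.30, adjusted p = 0.00829), and it passed whichever single library was left out. FRZB, another secreted Wnt inhibitor known from cartilage, stood at 6.63, 33.5, 6.83, 74.4, 3.58 and 3.89 CPM (slope 2.27, standard error 0.37, adjusted p = 0.0278, and 3.80 in replicates 1 to 4). SFRP5 thus separated replicates 1 to 4 from replicates 5 and 6, whereas FRZB was high only in replicates 2 and 4. A receptor for R-spondins, LGR4, was higher with the share too (slope 0.83, adjusted p = 0.0237, and 0.31 in replicates 1 to 4). A further Wnt inhibitor, WIF1, stood at 131, 122, 36.4, 24.8, 177 and 198 CPM, nearly the opposite order, and did not pass on this axis (slope −1.24, adjusted p = 0.132). Over 13 tested Wnt and BMP genes, 3 were higher and none was lower, with a median slope of −0.05 (−0.56 in replicates 1 to 4).

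EXTL1, an exostosin-like glycosyltransferase, stood at 38.7, 86.6, 76.7, 182, 7.50 and 7.74 CPM (slope 2.52, standard error 0.18, adjusted p = 0.00424). APOD, an apolipoprotein of the lipocalin family, stood at 329, 768, 788, 1633, 129 and 106 CPM (slope 2.10, standard error 0.17, adjusted p = 0.00568). Both passed whichever single library was left out, as did the kinase gene STK26 (slope 1.48, adjusted p = 0.00424). Replicates 5 and 6 were lowest and replicate 4 highest in each of the 3 genes. EXTL1 belongs to a list of 15 tested genes of glycosaminoglycan synthesis, in which 2 were higher and 1 was lower (median slope 0.20). The other member higher was PAPSS2, which makes the sulfate donor for proteoglycans (slope 1.01, adjusted p = 0.0155). LOXL4, a lysyl oxidase that cross-links collagen, was the member with the largest slope among 20 collagen processing enzymes (slope 2.18, adjusted p = 0.0266, and 1.13 in replicates 1 to 4), of which 1 was higher and 1 was lower.

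Genes of the Hedgehog pathway were among the largest slopes. PTCH1, the Hedgehog receptor and itself a target of the pathway, stood at 18.7, 50.4, 73.6, 178, 6.14 and 8.48 CPM (slope 2.39, standard error 0.30, adjusted p = 0.0162). GLI1, a transcription factor that the pathway induces, stood at 2.54, 9.09, 6.83, 16.2, 1.88 and 1.02 CPM (slope 2.03, standard error 0.21, adjusted p = 0.0113). Both slopes were steeper still in replicates 1 to 4 alone, at 2.87 and 2.47. The list of 12 pathway genes was made after these values were seen and so was not tested as a list. Of these, 8 were tested and 5 passed, all higher, where 1.19% of all genes tested were called higher. Those that passed were PTCH1, GLI1, GLI2 (slope 0.87), the coreceptor BOC (slope 0.91, and 0.44 in replicates 1 to 4) and the inhibitor SUFU (slope 0.62, and 0.34). GLI3, with a negative slope, SMO and CDON did not pass (adjusted p = 0.279, 0.585 and 0.0756 from edgeR). Of the ligands, SHH had no count in any of the libraries, and IHH stood at 3.82 CPM in replicate 4 and at 0.07 to 1.02 CPM in the others.

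**Figure D3:**
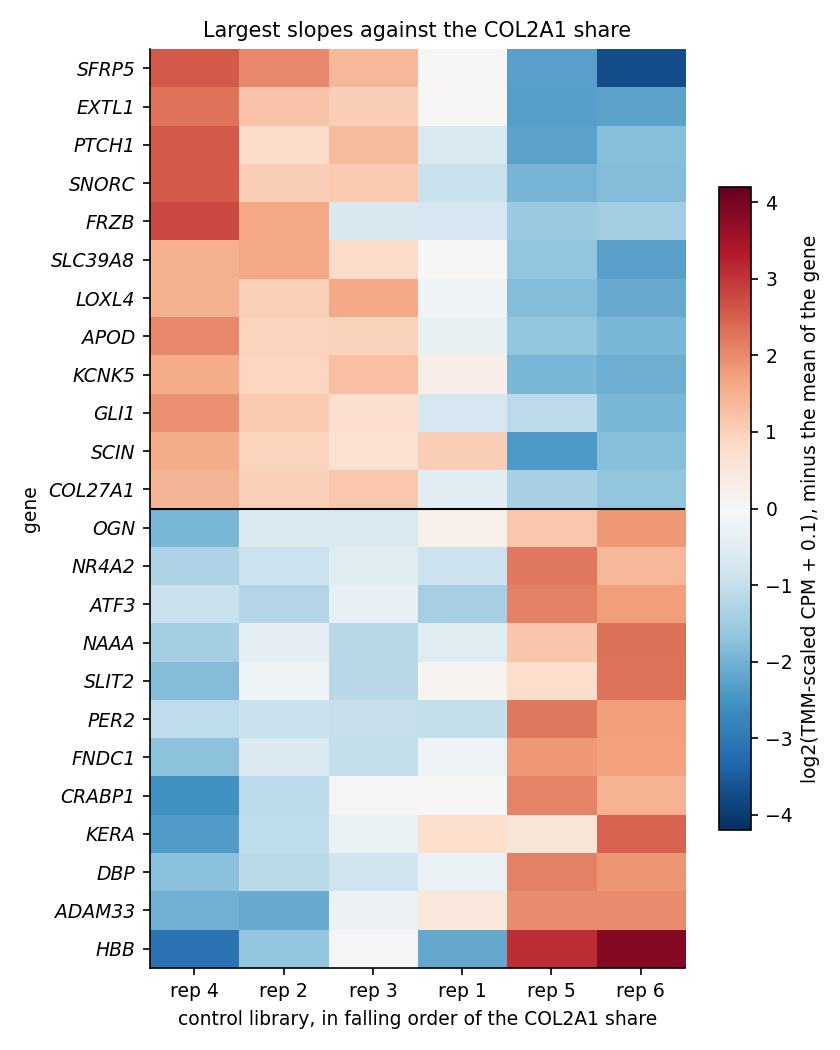
Level of the 12 named genes with the largest positive and the 12 with the largest negative slope against the COL2A1 share, as log2 of TMM-scaled CPM plus 0.1 minus the mean of the gene, with the 6 control libraries in falling order of the share. Colour turns between replicate 1 and replicate 5 for most genes, as for EXTL1, at 38.7 CPM in replicate 1 and 7.50 CPM in replicate 5.

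Lower with the COL2A1 share were genes of fibrous matrix such as FNDC1 and COL14A1. FNDC1, a secreted protein with fibronectin domains, stood at 528, 409, 307, 188, 2184 and 2041 CPM (slope −1.92, standard error 0.21, adjusted p = 0.0137) and passed whichever single library was left out. COL14A1, the chain of a collagen that associates with type I fibrils, stood at 2629, 1807, 1425, 696, 3639 and 3688 CPM (slope −1.14, standard error 0.21, adjusted p = 0.0396, and −1.84 in replicates 1 to 4). Replicates 5 and 6 were highest and replicate 4 lowest for both. Of 9 fibrous collagens other than COL1A2, COL14A1 was the 1 lower with the share and none was higher (median slope −0.15). COL3A1, at 28444 to 44131 CPM, did not pass (slope 0.19, adjusted p = 0.583), nor did any chain of types V and VI that was tested.

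The small leucine-rich proteoglycans divided by gene. Of 10 tested, 4 were lower with the share and none was higher, with a median slope of −0.23 (−0.70 in replicates 1 to 4). OGN (osteoglycin, also called mimecan) stood at 152, 85.8, 84.8, 34.3, 285 and 461 CPM (slope −1.80, standard error 0.13, adjusted p = 0.00424) and passed whichever single library was left out. ASPN (asporin) stood at 47.1, 33.4, 51.1, 16.9, 86.5 and 166 CPM (slope −1.49, standard error 0.15, adjusted p = 0.0111). ECM2 stood at 99.3, 108, 78.3, 56.9, 198 and 234 CPM (slope −0.999, standard error 0.142, adjusted p = 0.0207). All 3 were highest in replicate 6, next highest in replicate 5 and lowest in replicate 4.

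These 3 genes lie side by side on chromosome 3 of Sscrofa11.1, all on the minus strand, with OMD (osteomodulin) among them. OGN spans chr3:42116521-42135940, OMD chr3:42142603-42155032, ASPN chr3:42165553-42192902 and ECM2 chr3:42205246-42243746. OMD stood at 16.0, 49.3, 52.3, 212, 13.7 and 35.6 CPM (slope 1.35, adjusted p = 0.12). Thus OMD was highest in replicate 4, where its 3 neighbours were lowest, and its own slope did not pass. In a second group on chromosome 5, DCN (decorin, chr5:91678601-91713925), LUM (lumican, chr5:91748871-91756381) and KERA (keratocan, chr5:91794317-91802362) followed no common order. KERA stood at 5.74, 1.55, 2.75, 0.56, 4.78 and 19.3 CPM (slope −2.17, adjusted p = 0.0225, and −3.48 in replicates 1 to 4), highest in replicate 6. LUM stood at 162, 154, 402, 59.1, 37.0 and 50.2 CPM, highest in replicate 3 (slope 1.18, adjusted p = 0.427, and −2.28 in replicates 1 to 4). DCN stood at 3609, 3839, 2957, 2212, 1429 and 1491 CPM, lowest in replicates 5 and 6 (slope 0.60, adjusted p = 0.292, and −0.66 in replicates 1 to 4).

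TNMD varied more than any other of the 4 markers. It stood at 32.2, 10.5, 5.29, 0.509, 18.3 and 114 CPM, highest in replicate 6 and lowest in replicate 4. Its slope on the COL2A1 share was −2.71 (standard error 0.60) and just missed the threshold (adjusted p = 0.0562). Within replicates 1 to 4 its slope was −5.19, as TNMD fell from 32.2 CPM in replicate 1 to 0.509 CPM in replicate 4. That lowest level lay near the minimum of 10 counts per library, so both slopes rest in part on a low count. Replicate 5, with a lower COL2A1 share than replicate 1, had less TNMD than that library. The close relative of TNMD, CNMD (chondromodulin), which is a secreted factor of cartilage, ran the other way at 111, 223, 165, 332, 22.7 and 53.0 CPM (slope 1.64, standard error 0.28, adjusted p = 0.0317). TNMD lies at chrX:82269323-82292083 and CNMD at chr11:25959192-25994773.

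Of 9 tested markers of tendon and outer annulus, 3 were lower and 1 was higher with the COL2A1 share, with a median slope of −0.90 (−0.48 in replicates 1 to 4). Those lower were KERA, THBS4, a thrombospondin of tendon (slope −0.95, adjusted p = 0.0225), and IGFBP6, a binding protein of insulin-like growth factors (slope −0.90, adjusted p = 0.0326). The member higher was ANGPTL7, an angiopoietin-like secreted protein, at 397, 637, 1151, 1511, 356 and 213 CPM (slope 1.35, standard error 0.25, adjusted p = 0.0364). ANGPTL7 was thus highest in replicate 4, where TNMD was lowest. The genes for the elastic fibre protein FBLN5 (slope −0.94, adjusted p = 0.0225) and for MMP2, a gelatinase of connective tissue (slope −0.94, adjusted p = 0.0225, and −0.52 in replicates 1 to 4), were lower with the share, while ADAMTS5, an aggrecan-cleaving protease, was higher at a low level of 1.96 to 8.15 CPM (slope 0.92, adjusted p = 0.0308). Of 22 tested matrix proteases and inhibitors, 1 was higher and 2 were lower.

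**Figure D4:**
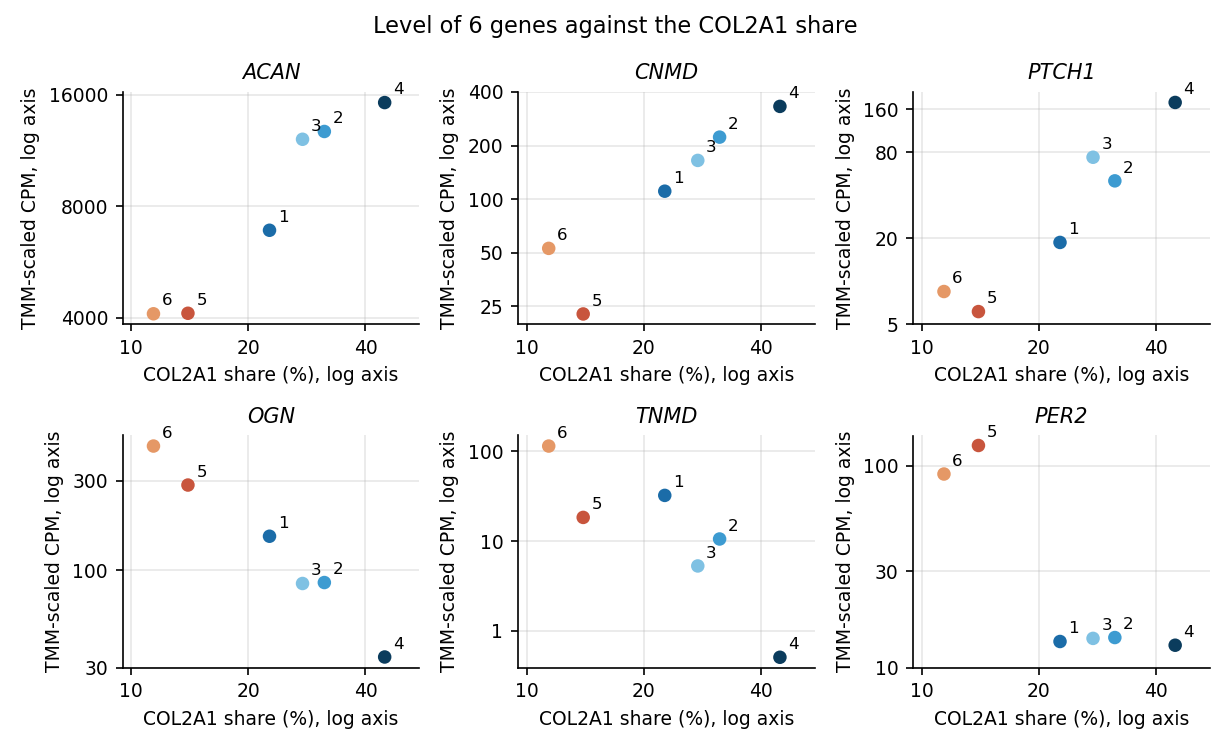
TMM-scaled CPM of 6 genes against the COL2A1 share in percent, both on log axes, with the 6 control libraries marked by replicate number. ACAN, CNMD and PTCH1 lie higher at higher shares, OGN and TNMD lie lower, and PER2 stands at 12.9 to 14.1 CPM in replicates 1 to 4 and at 126 and 91.1 CPM in replicates 5 and 6.

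No gene among 11 tested transcription factors and receptors of chondrocytes passed on either axis (median slope 0.24), although 5 had an unadjusted p under 0.05 in edgeR on each axis. SOX9, the master regulator of the chondrocyte programme, stood at 136, 178, 246, 146, 242 and 175 CPM (slope −0.16, adjusted p = 0.684). Replicates 4 and 1, which were the highest and the third lowest in COL2A1 share, thus held the lowest SOX9 levels. The slope of SOX5, a partner of SOX9, was 0.62 and did not pass (adjusted p = 0.055). Of 8 tested secreted factors of chondrocytes, by contrast, 4 were higher and none was lower: SFRP5, FRZB, CNMD and the calcium-binding S100A1 (slope 0.99, adjusted p = 0.0392, and 0.49 in replicates 1 to 4). The median slope of this list was 1.31 in all 6 libraries and 0.13 in replicates 1 to 4.

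Several genes of the circadian clock were high in replicates 5 and 6, and PER2 did not vary with the share among the other 4. PER2, a repressor of the circadian clock, stood at 13.5, 14.1, 14.0, 12.9, 126 and 91.1 CPM (slope −1.87, standard error 0.34, adjusted p = 0.0358, and −0.08 in replicates 1 to 4). DBP, a transcription factor that the clock drives, stood at 8.62, 4.74, 5.84, 3.06, 46.1 and 38.3 CPM (slope −2.21, adjusted p = 0.0109, and −1.51 in replicates 1 to 4). NR1D2, a nuclear receptor of the clock, stood at 29.3, 20.5, 27.4, 13.8, 102 and 91.8 CPM (slope −1.57, adjusted p = 0.0109, and −1.17 in replicates 1 to 4). PER2 was flat over replicates 1 to 4, whereas DBP and NR1D2 were lowest in replicate 4 as well and passed whichever single library was left out. Of 15 clock genes, a list made after these values were seen and so not tested as a list, 5 passed: PER1, PER2, DBP, NR1D2 and CRY2. All 5 were lower with the share, where 1.74% of all genes tested were called lower. CRY2, like PER2, differed mainly between the 2 sets of libraries. It stood at 5.37 to 7.39 CPM in replicates 1 to 4 and at 33.8 and 40.6 CPM in replicates 5 and 6. The day and the time of day at which each disc was collected are not given in the labels. BMAL1, the activator of the clock, went the other way, at 8.07 to 9.25 CPM in replicates 1 to 4 and 1.02 and 1.34 CPM in replicates 5 and 6, and did not pass (adjusted p = 0.0724). Of the 353 genes called, 22 had a slope in replicates 1 to 4 of less than 25% of that in all 6, and 21 of these were genes lower with the share.

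Immediate-early genes, which cells switch on within minutes of a stimulus, summed highest in the same libraries. All 15 tested had a negative slope, with a median of −0.98 (−0.44 in replicates 1 to 4), and 3 passed. ATF3 stood at 2.16, 2.47, 4.63, 3.01, 26.0 and 20.3 CPM (slope −1.85, adjusted p = 0.0495), and its slope turned to 0.13 without replicates 5 and 6. NR4A2 stood at 11.7, 11.7, 15.2, 8.86, 102 and 57.5 CPM (slope −1.85, adjusted p = 0.0326, and −0.55 in replicates 1 to 4). BTG2 was the other member to pass (slope −0.92, adjusted p = 0.0256). DUSP1, a phosphatase of the MAP kinases, stood highest in replicate 4, at 192 CPM, against 145 and 181 CPM in replicates 5 and 6. Summed over the list, levels were 335 to 622 CPM of all counts in replicates 1 to 4 and 1337 and 995 CPM in replicates 5 and 6. NFATC1, a calcium-dependent transcription factor that is no member of the list, showed the same pattern at 20.7 to 28.6 CPM in replicates 1 to 4 and 169 and 121 CPM in replicates 5 and 6, and its slope of −1.58 (adjusted p = 0.0483) turned to 0.14 without the latter.

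Heat shock chaperones summed to 1229 to 2028 CPM of all counts in replicates 1 to 4 and to 4601 and 4517 CPM in replicates 5 and 6. Of 11 tested, 2 were lower with the COL2A1 share, BAG3 (slope −0.84, adjusted p = 0.0297) and HSPB8 (slope −0.62, adjusted p = 0.0483), both with a slope of −0.28 in replicates 1 to 4, which act together in chaperone-assisted clearance of proteins. The median slope of the list was −0.80 and turned to 0.14 in replicates 1 to 4. HSPA1L, which made up most of the sum in replicates 5 and 6 and shares near-identical sequence with other HSP70 genes, stood at 117, 825, 500, 507, 2776 and 2354 CPM and did not pass (slope −1.32, adjusted p = 0.192, and 1.68 in replicates 1 to 4). The part of these stress and clock genes in the calls against the collagen share was not tested.

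HBB, the beta chain of adult haemoglobin, had the largest slope of all genes called. It stood at 9.86, 14.0, 41.5, 5.04, 374 and 628 CPM (slope −3.59, standard error 0.49, adjusted p = 0.0207, and −2.12 in replicates 1 to 4), and reads of other globin genes may be shared with it. Summed over the 5 red blood cell markers in the table, levels were 5.50 to 48.5 CPM of all counts in replicates 1 to 4 and 357 and 677 CPM in replicates 5 and 6. Of the other markers, ALAS2, the red cell enzyme of haem synthesis, was highest in replicates 5 and 6, at 3.84 and 8.80 CPM, while SLC4A1, the anion exchanger, stood at 0.853 and 1.99 CPM there and at 1.03 to 1.78 CPM elsewhere. Replicates 5 and 6 thus differed from the others in collagens, in blood markers and in stress genes together, and the part of blood in the other results was not tested.

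On the COL1A2 share, 239 of 12045 genes passed (1.98%), of which 147 were higher (1.22%) and 92 lower (0.764%). The genes higher made up 61.5% of those called, and 85.3% under scaling by library size alone. These libraries are the same 6, so neither axis supports the other. Without replicate 6, edgeR called 0 genes, with 1454 at an unadjusted p under 0.05, and without replicates 5 and 6 it also called 0, with 1110. Leaving out replicate 2, 3, 4 or 5 left 159, 158, 435 and 41 calls. All 147 genes called higher and all 92 called lower kept their sign in replicates 1 to 4 alone, which again follows in part from the calling. None passed in all 6 omissions of 1 library.

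Higher with the COL1A2 share were TNMD, ENPP2, C2 and genes already given as lower with the COL2A1 share. TNMD had the largest slope among the named genes called (2.28, standard error 0.44, adjusted p = 0.0489). This slope too rests in part on its low count in replicate 4. ENPP2, which encodes autotaxin, the enzyme that makes lysophosphatidic acid, stood at 79.5, 61.1, 37.4, 5.96, 146 and 134 CPM (slope 1.47, standard error 0.20, adjusted p = 0.0178). C2, a component of the complement cascade, stood at 22.3, 10.1, 5.45, 0.866, 40.4 and 28.8 CPM (slope 1.72, standard error 0.23, adjusted p = 0.0162). Both genes followed the order of the COL1A2 share exactly, with replicate 5 highest and replicate 4 lowest. WIF1 passed on this axis (slope 1.07, adjusted p = 0.0401), as did FNDC1 (1.31, adjusted p = 0.0126, and 0.82 in replicates 1 to 4), OGN (1.25, adjusted p = 0.0118) and COL14A1 (0.85, adjusted p = 0.0143). ADAM33, a membrane metalloproteinase, and SLIT2, a secreted guidance factor, had slopes of 1.48 and 1.38 (adjusted p = 0.0401 and 0.0292).

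Lower with the COL1A2 share were PTCH1 (slope −1.74, standard error 0.14, adjusted p = 0.00734), EXTL1 (−1.73, adjusted p = 0.0161, and −1.06 in replicates 1 to 4) and SNORC (−1.68, adjusted p = 0.0118). PTCH1 had the smallest adjusted p of these, and its slope in replicates 1 to 4 was −1.60. COMP (−0.85, adjusted p = 0.0137) and FN1 (−0.94, adjusted p = 0.0137) passed, as did COL27A1 (−1.22, adjusted p = 0.0353, and −0.75 in replicates 1 to 4) and CNMD (−1.20, adjusted p = 0.0407, and −0.70). MT1X, a metallothionein that binds zinc and copper, was highest in replicate 4, at 524 CPM, and lowest in replicates 5 and 6, at 39.3 and 62.9 CPM (slope −1.22, adjusted p = 0.0162). Near-identical metallothionein genes may share its reads. SC5D, a desaturase of cholesterol synthesis, was highest in replicate 4, at 17.5 CPM, and stood at 1.79 and 2.18 CPM in replicates 5 and 6 (slope −1.08, adjusted p = 0.0162).

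Markers of other cell types had different orders over the libraries. Those of loose connective tissue fibroblasts summed to 805, 1166, 1196, 1655, 591 and 588 CPM of all counts in replicates 1 to 6, nearly in the order of the COL2A1 share, with APOD called higher among 8 tested and none lower (median slope −0.56). APOD made up most of that sum in replicate 4, and 5 of the 8 slopes were negative. The part of these cells in the result was not tested. Smooth muscle and pericyte markers summed to 333 to 742 CPM, with DES (desmin) called lower among 8 tested (adjusted p = 0.0497). Macrophage and monocyte markers summed to 312 CPM of all counts in replicate 1 and to 18.2 to 84.0 CPM in the other 5, with none of 12 tested genes called by edgeR and 0 at an unadjusted p under 0.05. Skeletal muscle markers summed to 186 CPM in replicate 6 and to 5.18 to 43.1 CPM elsewhere, with none of 2 tested genes called and both at an unadjusted p under 0.05. Endothelial markers summed to 486 to 933 CPM, with none of 7 called and 0 at an unadjusted p under 0.05. The highest sums of macrophage, muscle and endothelial markers thus fell in different libraries, replicates 1, 6 and 3. Of markers of the nucleus pulposus and notochord, SHH had no count, and KRT8 and KRT18 stood at 0 to 3.50 and 0 to 0.597 CPM, while PAX1, a sclerotome transcription factor on the same list, stood at 35.5 to 78.9 CPM and made up most of the sum of 28.2 to 94.2 CPM of all counts. COL10A1, the collagen of hypertrophic cartilage, stood at 0 to 1.93 CPM. The list of hypertrophic cartilage and bone to which it belongs summed to 606 to 924 CPM of all counts, nearly all from SPP1 (osteopontin, 496 to 704 CPM) and IBSP (bone sialoprotein, 66.9 to 252 CPM). None of the 4 tested genes of that list was called.

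**Figure D5:**
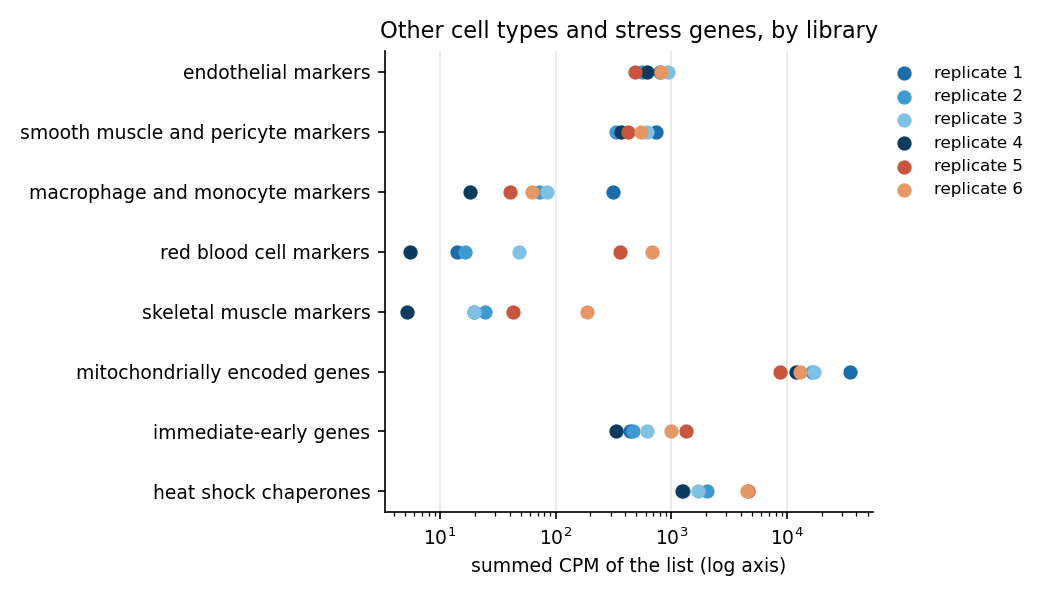
Summed CPM of all counts, on a log axis, of 8 lists of genes in each of the 6 control libraries, with 1 point for each library. Red blood cell, heat shock and immediate-early genes are highest in replicates 5 and 6, mitochondrially encoded genes reach 35429 CPM in replicate 1, and macrophage markers 312 CPM in the same library.

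The mitochondrially encoded genes were a further source of spread. They summed to 35429 CPM of all counts in replicate 1 and to 8728 to 17142 CPM in the others, with none of 13 called by edgeR and 0 at an unadjusted p under 0.05. Of their slopes on the COL2A1 share, 11 were positive and 2 negative, with a median of 0.36 (−1.56 in replicates 1 to 4). In TMM-scaled CPM, COX1, COX2 and ATP6 were lower in replicates 5 and 6 than in any other library, whereas COX3 and CYTB were not. Among named genes of at least 50 CPM on average, the largest coefficients of variation were those of ND6 (203%) and ND5 (166%), subunits of respiratory complex I, followed by HBB (147%), OMD (118%), PTCH1 (117%) and SFRP5 (101%). The median over 1592 genes of that level was 17.2%. The smallest were those of MYO1C (3.48%), an unconventional myosin, and IQGAP1 (3.54%), a scaffold of the cytoskeleton. Both genes were picked for their small spread after TMM scaling, over libraries in which the COL2A1 share varied 3.93-fold.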

How the data were processed

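Poly-A RNA of ventral annulus wedges was sequenced in the 6 control libraries. Base calling by the authors used CASAVA and mapping to Sscrofa11.1 used JMP Genomics. Their deposited table gives expected counts, which are estimates before any scaling and can split a read among genes, so that only 23.8 to 28.5% of a library's values were whole. Groups and replicate numbers come from the sample titles. The table of gene names matched 11700 identifiers (52.7%), and sheets of the study named 98 more. Positions and sequences are from RefSeq on Sscrofa11.1.

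Expected counts were rounded. Genes with at least 10 counts in every control library were kept, 12046 in all, of which the gene whose share was the covariate was left out, and scaled by TMM (factors 0.788 to 1.17). The log2 share in percent was the only covariate in the quasi-likelihood test of edgeR 4.0.16 (R 4.3.3), 2-sided, with Benjamini-Hochberg adjustment over all genes tested and calls at an adjusted p under 0.05. Standard errors derive from its F statistic. CPM is scaled to the total of all counts or, where stated, to the TMM-scaled library. Coding lengths are those of the RefSeq annotation, while counting used Ensembl genes. The kit does not mark strand, so overlapping genes on opposite strands cannot be told apart.

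Named genes are the 40 of highest mean CPM, the 12 largest positive and negative slopes per axis among called genes with a symbol and at least 5 CPM, leading members of the 39 gene lists, and the 10 most and least variable genes of at least 50 CPM. MATN3, STK26, RPLP1 and the Hedgehog and clock genes outside this rule were chosen after their values were seen. The libraries, axes and lists were chosen with earlier results of these data known.

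Slopes were also seeded in simulated counts with 12046 genes in the fit. For the COL2A1 share, seeded slopes of 0.5, 1 and 2 were recovered in 4 of 67, 54 of 67 and 66 of 66 genes. Of 11846 unchanged genes, 2 were called. For the COL1A2 share they were recovered in 35 of 67, 65 of 67 and 66 of 66 genes, and 6 of 11846 unchanged genes were called. These rates describe the simulated counts only. In the control libraries the first principal component held 47.7% of the variance. Whether the rates hold for libraries with such shared differences was not tested. Alternatives were other scalings, count minimums, tools (limma voom 3.58.1, DESeq2 1.42.0) and covariates, and omitted libraries. Intervals cover counting error only, since reads carry no molecular identifiers. Intervals used scipy 1.17.1, tables pandas 2.3.3 (Python 3.11.15) and figures matplotlib 3.10.9. The 6 libraries of loaded annuli were not used.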

Additional observations from a re-analysis of the deposited data

Results flagged for a closer look

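In 14 of 95 measures shown for the 6 control libraries, the highest or the lowest library lay farther from its nearest neighbour than Dixon's 95% critical value allows, relative to the whole range. The rule flags about 1 in 20 groups of normally distributed values, whereas many of these measures were shown because of their slope or spread. Measures of 1 library are also not independent of each other, so the 14 cannot be set against a number expected by chance.

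Replicate 4, the library with the highest COL2A1 share, accounts for 7 of the 14. Its ratio of COL2A1 to COL1A2 counts was 16.9, and its 10 most abundant transcripts held 60.2% of all counts. It was far above the other libraries in OMD (212 CPM, TMM-scaled), SNORC (155 CPM), MATN3 (152 CPM) and IHH (3.82 CPM), and far below them in the summed CPM of genes for chaperones and secretion of the endoplasmic reticulum (2772 CPM of all counts). That sum was taken over all counts, of which COL2A1 alone held 44.8% in replicate 4, and 2 of the 21 genes were called, both higher with the COL2A1 share.

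Replicate 6 stood apart in TNMD (114 CPM), KERA (19.3 CPM) and the sum of skeletal muscle markers (186 CPM), and replicate 1 in ND6 (688 CPM), the sum of mitochondrially encoded genes (35429 CPM) and the sum of macrophage and monocyte markers (312 CPM). Replicate 3 stood apart in LUM (402 CPM). Replicate 5 stood apart in none of the measures. What set these libraries apart was not tested.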

How the results depend on the processing

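Calls against the COL2A1 share numbered 353, and calls against the COL1A2 share 239. Under the Wald test of DESeq2 they were 1024 and 826, with the share in percent 178 and 742, and with log2 total count as a second covariate 63 and 50. With the share taken of the counts left without both collagens, calls against COL2A1 were 221. Leaving out 1 library gave 35 to 376 and 0 to 435 calls, and leaving out replicates 5 and 6 together gave 0 and 0. Other scalings, count minimums and limma voom kept both counts within 1.5 times. The cause of these changes was not tested, and the omissions also left fewer libraries in the fit. The top 10 transcripts held 23.8% in place of 49.4% once both collagens were left out.

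Of 93 slopes printed, 82 had passed. Without replicates 5 and 6, none of the 82 passed and 6 slopes changed sign: ATF3 (0.13) and NFATC1 (0.14), which had passed, and LUM (−2.28), DCN (−0.66), HSPA1L (1.68) and CCN2 (1.92), which had not. SOX9 changed sign with total count as a covariate (0.086). Calls lost numbered 54 with that covariate, 26 with the share in percent, and 6, 42, 22, 44, 62 and 68 without replicates 1 to 6. No sign changed under another scaling, count minimum or tool. With 6 libraries, slopes of 0.5 per doubling of the COL2A1 share were mostly missed in simulation. The rate in the control libraries themselves was not tested. No paired analysis was possible because only 1 group was used.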

Other observations

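Genes of sterol and fatty acid synthesis varied with the COL2A1 share, in a list of 17 made after the values were seen and so not tested as a list. Of the 17, 5 passed, all higher with the share, where 1.19% of all genes tested were called higher. They were FASN, the fatty acid synthase, ACLY, which supplies its acetyl-CoA, and FDPS, IDI1 and SC5D of the sterol pathway. The median slope was 0.71, and 0.90 in replicates 1 to 4. LSS, lanosterol synthase, stood at 20.7, 38, 44.1, 85.4, 31.0 and 20.3 CPM (TMM-scaled) in replicates 1 to 6 and did not pass (adjusted p = 0.0768 from edgeR).

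Complement C1q genes were concentrated in 1 library. C1QC stood at 66.5, 14.6, 15.5, 2.39, 7.08 and 10.2 CPM and C1QA at 51.4, 10.2, 10.4, 1.38, 3.75 and 6.49 CPM, with replicate 1 highest and replicate 4 lowest in both. These genes mark resident macrophages, and neither passed on the COL2A1 share (adjusted p = 0.947 and 0.976).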
